A study of Mus musculus with 6 samples.

Results

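Receptor protein tyrosine phosphatases are transmembrane enzymes that remove phosphate from tyrosine residues and carry adhesion-molecule domains outside the cell. 10 of these genes were followed here in cultured mouse neural stem cells (NSCs), out of the 53379 genes in the expression table: *Ptprk*, *Ptprm*, *Ptprt*, *Ptpru*, *Ptprf*, *Ptprs*, *Ptprd*, *Ptprz1*, *Ptprg* and *Ptpro*. *Ptprk* was chosen by its own read counts, near absent in the control libraries and present in the libraries labelled Cre, so its values are a description and carry no test. The other 9 genes were taken as members of its family, also with earlier results of these data known, and they are not all of the receptor phosphatases. RNA-seq was done on NSCs derived from the cortex of embryos at embryonic day 14.5 and homozygous for a floxed allele of *Tbl1xr1*. This gene encodes a subunit of the NCOR/SMRT corepressor complexes. The study routinely grew its NSCs as neurospheres with EGF and bFGF and also used adherent cultures. Its methods do not name the format of the sequenced cells. The 3 control libraries (replicates 1, 1_1 and 2) came from cells infected with a lentivirus for GFP, and the 3 libraries labelled Cre (replicates 2, 2_2 and 3) from cells infected with a lentivirus for Cre and GFP, after which, in the study's description, green cells were sorted. All 6 libraries therefore share the floxed alleles, the infection and the sort. The promoter that drives Cre in these vectors and the embryo or culture behind each library are not given in the sources used here, so the group and the culture of origin cannot be told apart, and p-values measure only the spread between these libraries, which may be technical. Whether replicates 1 and 1_1, or 2 and 2_2, share a culture is not stated either. If they do, n = 3 stands for 2 cultures in a group.

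The family is sorted by the structure of the extracellular part. The R2B group (*Ptprk*, *Ptprm*, *Ptprt*, *Ptpru*) has a MAM domain followed by immunoglobulin and fibronectin type III domains. Its proteins sit at cell contacts, several of them bind their own kind on the neighbouring cell, and they are cut by proteases such as furin and ADAM10. PTPRK is known to act on junction proteins such as β-catenin and to remove phosphate from the EGF receptor. The LAR group (*Ptprf*, *Ptprs*, *Ptprd*) binds proteoglycans and postsynaptic adhesion proteins, and works in axon growth and synapse formation. The R5 group (*Ptprz1*, *Ptprg*) carries a carbonic anhydrase-like domain that binds contactins. PTPRZ1 is itself a chondroitin sulphate proteoglycan of radial glia and glial precursors and a receptor for pleiotrophin. *Ptpro*, of the R3 group, encodes a receptor with fibronectin type III repeats that acts on Eph receptors in neurons and is abundant in kidney podocytes.

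The 10 genes lie on 6 chromosomes of the mouse genome (build GRCm38.p6, positions from RefSeq). *Ptprk* spans 523 kb of chromosome 10 (28074820 to 28597397). *Ptprm* spans 688 kb of chromosome 17 (66666848 to 67354491), *Ptprt* 1139 kb of chromosome 2 (161521988 to 162661147) and *Ptpru* 69.9 kb of chromosome 4 (131768457 to 131838306). *Ptprf* (83.2 kb, 118208213 to 118291405) and *Ptprd* (2271 kb, 75941237 to 78211742) are also on chromosome 4, and *Ptprs* (64.1 kb, 56412426 to 56476561) shares chromosome 17 with *Ptprm*. *Ptprz1* (178 kb, 22875315 to 23052916) and *Ptpro* (212 kb, 137252299 to 137464634) are on chromosome 6, and *Ptprg* (689 kb, 11553440 to 12242041) is on chromosome 14. The group thus holds very long genes such as *Ptprd* and compact ones such as *Ptprs*.

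The stretch of 250 bases before the annotated start is shown for *Ptprk*, the gene that was near absent in control, for *Ptprt*, the other R2B gene that was higher in the Cre-labelled libraries, and for *Ptpro*, which was also higher and has few CpG there. Sequences are RefSeq's (build GRCm38.p6), written 5′ to 3′ on the strand of the gene, with every CpG dinucleotide in capitals. They come from chr10:28074570-28074819 on the plus strand for *Ptprk*, chr2:162661148-162661397 on the minus strand for *Ptprt* and chr6:137252049-137252298 on the plus strand for *Ptpro*.
Ptprk: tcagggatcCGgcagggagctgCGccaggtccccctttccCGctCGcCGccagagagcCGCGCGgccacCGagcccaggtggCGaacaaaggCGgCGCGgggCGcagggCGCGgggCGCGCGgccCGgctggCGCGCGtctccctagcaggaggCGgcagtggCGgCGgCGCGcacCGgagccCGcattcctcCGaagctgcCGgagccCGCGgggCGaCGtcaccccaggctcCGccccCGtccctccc
Ptprt: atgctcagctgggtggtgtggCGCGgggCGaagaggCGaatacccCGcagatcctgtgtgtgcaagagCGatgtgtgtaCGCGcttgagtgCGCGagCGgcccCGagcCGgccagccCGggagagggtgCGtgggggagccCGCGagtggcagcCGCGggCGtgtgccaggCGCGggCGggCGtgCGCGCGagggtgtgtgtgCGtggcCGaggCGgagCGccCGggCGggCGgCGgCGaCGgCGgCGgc
Ptpro: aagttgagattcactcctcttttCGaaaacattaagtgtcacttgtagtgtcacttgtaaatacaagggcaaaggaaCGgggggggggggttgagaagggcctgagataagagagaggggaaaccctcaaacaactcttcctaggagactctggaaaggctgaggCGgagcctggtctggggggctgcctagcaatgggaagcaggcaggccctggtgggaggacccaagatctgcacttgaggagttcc

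*Ptprk* held 38 CpG in this window, *Ptprt* 39 and *Ptpro* 3, against a median of 6 over 32851 windows of the same length before annotated starts of mouse genes. At least as many CpG as in *Ptprk* were found in 1.88% of those windows, and as in *Ptprt* in 1.56%. *Ptprm*, with 37, and *Ptpru*, with 31, completed an R2B group in which every start was CpG-rich, whether the gene was higher or not. Of the other members, *Ptprf* had 18, *Ptprz1* 22, *Ptprs* 15 in each of its 2 windows, and *Ptprg* 31 and 6 in its 2 windows. Only the windows of *Ptprk*, *Ptprt* and *Ptpro* lie directly before the gene spans given above. The windows of the other members reach into those spans, and window 2 of *Ptprs* and of *Ptprg* lies wholly inside. *Ptprd* was not among the 9 members matched in the promoter table. A short E2F motif (TTCCCGC or its reverse complement GCGGGAA) was in the *Ptprk* window and in 3.82% of all windows. The nuclear receptor motif AGGTCA was in 1 window of *Ptprs* and in 14.0% of all windows. Both strands were searched. Neither the AP-1 motif TGACTCA, found in 4.46% of all windows, nor TATAAA, found in 12.4%, was in a window of a member. A match of letters is a description of the window and not a binding site.

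The libraries held 7510615 to 14828100 reads. Reads of *Tbl1xr1* itself were not lower in the Cre-labelled libraries (3381 ± 440 normalised counts, SD, n = 3, against 2477 ± 268 in control, log2 fold change 0.45, adjusted p = 0.06, limma), so the floxed gene's total reads did not check the labels, and the group is called by its label throughout. The loxP sites flank exon V of the gene, so reads over the whole gene do not measure the deletion itself. The study reports that the genotype of such cells was checked and that their *Tbl1xr1* mRNA and protein were absent. Those checks are not analysed here. A normalised count here is the number of reads of a gene divided by 1 size factor per library. Neural stem cell markers were abundant in every library, with summed levels of 38240 to 42101 in control and 38250 to 40903 in the Cre-labelled libraries. Of the 14840 genes tested, 9.96% were called at an adjusted p-value under 0.05 with limma, 4.74% higher and 5.22% lower in the Cre-labelled libraries.

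*Ptprk* went from a trace to a clear level. In control it had 1, 2 and 1 reads in replicates 1, 1_1 and 2, and in the Cre-labelled libraries it had 261, 238 and 175 reads in replicates 2, 2_2 and 3. Every library labelled Cre was thus far above every control library, and no library stood between. As normalised counts these were 0.918, 2.93 and 1.33 in control (1.73 ± 1.06, SD, n = 3) and 180.8, 204.9 and 156.7 in the Cre-labelled libraries (180.8 ± 24.1, n = 3). Against a floor of 3 reads in each control library the mean was at least 48.7-fold higher, and even the lowest library labelled Cre, replicate 3, was at least 35.7-fold above that floor. In bulk RNA, more cells that express a gene and more RNA per cell cannot be told apart, and this holds for each gene below.

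**Figure D1:**
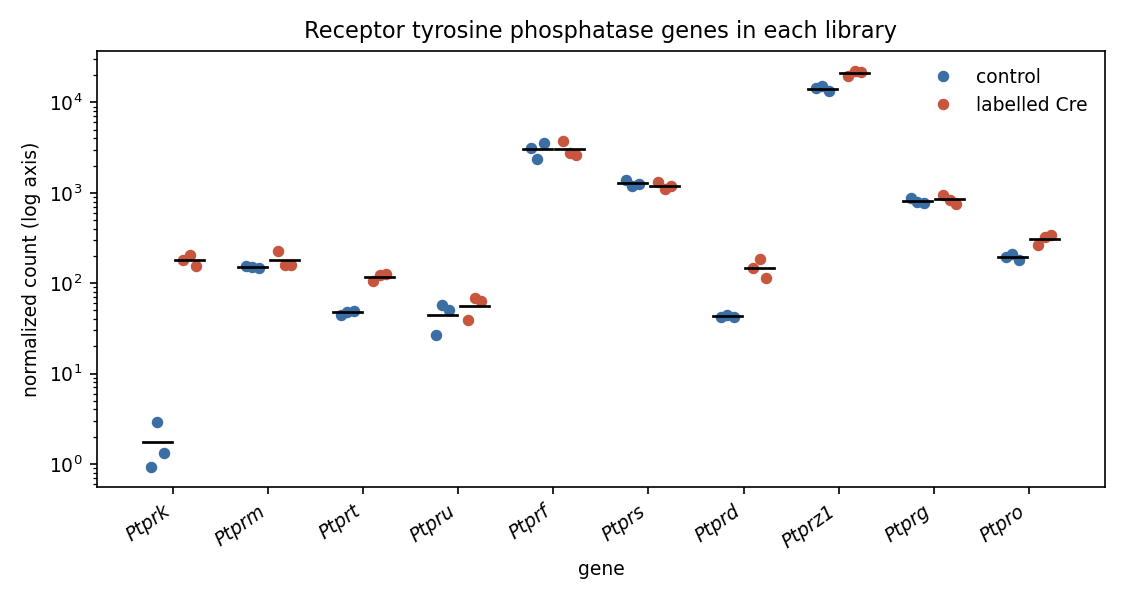
Normalised counts (log axis) of the 10 genes in each library, with control in blue, the Cre-labelled libraries in red, 1 point per library and a bar at each group's mean. *Ptprk* goes from about 1 to 3 in control to between 156.7 and 204.9, while *Ptprf*, *Ptprs* and *Ptprg* stay at the same height in both groups.

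Among the other 9 members, all of which passed the filter on low values, 4 were higher in the Cre-labelled libraries (*Ptprt*, *Ptprd*, *Ptprz1* and *Ptpro*), 0 were lower and 5 had no call, a share of 44.4% against 9.96% over all tested genes. The members were chosen with results of these data known, so this share is a description of the members and not independent support. edgeR and DESeq2 called the same counts in each structural group, and 0 of the 9 were lower at an unadjusted p under 0.05 with any of the 3 tools. *Ptprz1* and *Ptpro* lost their calls when a control library was left out, so the count was 2 without control replicate 1, 1_1 or 2, 2 without replicate 2_2 labelled Cre, and 2 with control replicates 1 and 1_1 averaged. With both pairs of replicates averaged, an alternative chosen after seeing the data that sets 2 samples against 2, the count was 3 (*Ptprt*, *Ptprd* and *Ptpro*), and *Ptprz1* had an adjusted p of 0.0616 with limma. Their median log2 fold change was 0.36, against -0.001 over all tested genes. The groups did not overlap for 5 of the 9, against 30.3% over all tested genes. In the main setting each of the structural groups held 1 called gene besides *Ptprk*, but the R3 group consists of *Ptpro* alone here. In the alternatives where *Ptprz1* or *Ptpro* lost its call, its group held no called gene. As the members were chosen with results of these data known, this spread over groups is a description.

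In the R2B group the 3 relatives of *Ptprk* behaved differently from each other. *Ptprt*, which encodes a homophilic adhesion receptor of neurons, had 45.0, 48.3 and 49.3 normalised counts in the 3 control libraries (in the order 1, 1_1, 2, here and below) and 104.6, 122.2 and 126.2 in the Cre-labelled ones (in the order 2, 2_2, 3). It was at about the same level in all 3 control libraries and higher in all 3 of the others (47.5 ± 2.28 against 118 ± 11.5, SD, n = 3 each). The control values rest on 49, 33 and 37 reads. Its log2 fold change was 1.29 (SE 0.20, 95% interval 0.84 to 1.74, adjusted p = 0.0032, limma), and the call was kept under all 16 alternative settings.

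*Ptprm*, which encodes a homophilic receptor at cadherin junctions, had 155.1, 152.1 and 148.0 normalised counts in control and 224.4, 157.5 and 159.4 in the Cre-labelled libraries. The groups did not overlap, but by a narrow gap, and replicate 2 labelled Cre stood apart above the rest. The log2 fold change was 0.23 (SE 0.18, 95% interval -0.17 to 0.63, adjusted p = 0.478, limma). *Ptpru* had 26.6, 57.0 and 50.7 in control and 38.8, 68.0 and 62.7 in the Cre-labelled libraries, with overlapping groups and 1 low library in each. Its log2 fold change of 0.36 had a 95% interval of -0.38 to 1.10 (adjusted p = 0.557, limma), which leaves room for a change of the size seen in *Ptprz1* or none.

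Set per kb of exon, so that genes of different length can be compared, the make-up of the R2B group was not the same in the 2 conditions. The summed level of its 4 genes was 34.7 ± 2.19 normalised counts per kb in control and 71.9 ± 4.64 in the Cre-labelled libraries (SD, n = 3 each). *Ptprm* made up 66.6 to 77.1% of that sum in control and 34.5 to 47.9% in the Cre-labelled libraries. *Ptprk* went from a share of 0.400 to 1.12% to one of 33.2 to 39.4%, next to *Ptprm*, and the ranges of the 2 groups did not meet. Without *Ptprk* the sum was 34.5 ± 2.06 in control and 46.3 ± 3.07 in the Cre-labelled libraries. Since *Ptprk* was chosen for this contrast, the sum and the shares that include it are a description.

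**Figure D2:**
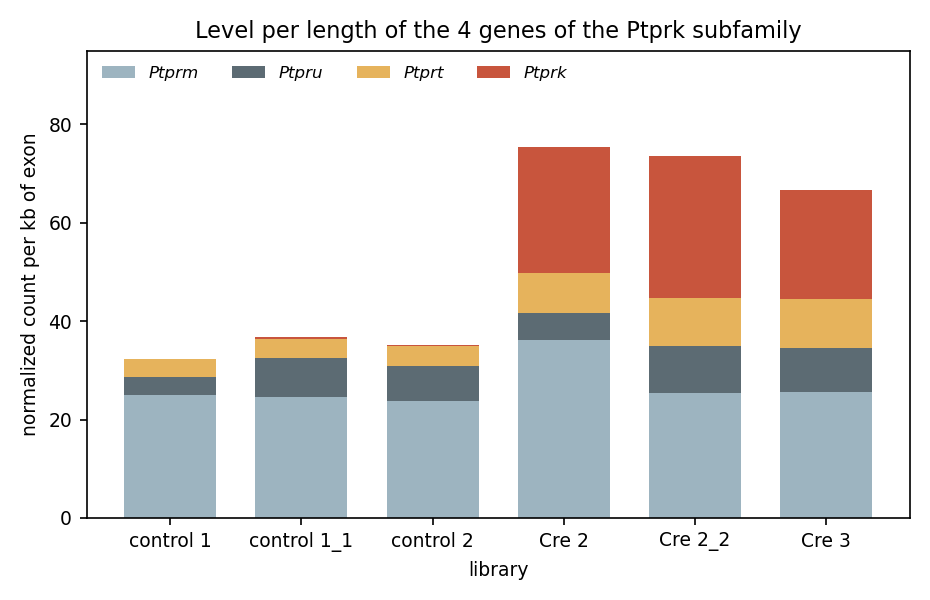
Level per kb of exon of *Ptprm*, *Ptpru*, *Ptprt* and *Ptprk* stacked for each of the 6 libraries. The stacks reach 32.4 to 36.8 in control and 66.6 to 75.4 in the Cre-labelled libraries, where the red *Ptprk* segment is about as tall as the *Ptprm* segment in replicates 2_2 and 3.

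In the LAR group the gene with the lowest level was the one that was higher. *Ptprd*, a presynaptic receptor for several synaptic adhesion proteins, had 42.2, 43.9 and 42.7 normalised counts in control and 145.4, 185.1 and 114.6 in the Cre-labelled libraries. The control libraries were within 2 counts of each other, while the others spread more widely but were all well above them (42.9 ± 0.862 against 148 ± 35.3, SD, n = 3 each). The control values rest on 46, 30 and 32 reads, so their closeness does not show a precise level. The log2 fold change was 1.74 (SE 0.23, 95% interval 1.24 to 2.24, adjusted p = 0.0011, limma), the largest among the 9 members, and its call was kept under all 16 alternatives.

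The other members of the LAR group were expressed at far higher levels and did not pass the test. *Ptprf*, which encodes LAR itself, had 3170, 2380 and 3527 normalised counts in control and 3732, 2729 and 2606 in the Cre-labelled libraries, with overlapping groups. Its log2 fold change was -0.001 (95% interval -0.38 to 0.38, adjusted p = 0.997, limma). *Ptprs*, encoding a receptor for chondroitin and heparan sulphate proteoglycans, had 1398, 1188 and 1266 in control and 1323, 1098 and 1179 in the Cre-labelled libraries, also overlapping. Its log2 fold change was -0.10 (95% interval -0.37 to 0.17, adjusted p = 0.675, limma). Because of these high levels the summed LAR level per kb was 515 ± 73.7 in control and 508 ± 82.4 in the Cre-labelled libraries (SD, n = 3 each), and *Ptprd* was 0.330 to 0.447% of it in control and 1.06 to 1.76% in the others.

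In the R5 group *Ptprz1* was the most abundant receptor phosphatase of these cells in either condition. It had 14444, 15033 and 13288 normalised counts in control and 19636, 22531 and 21714 in the Cre-labelled libraries. The groups were well apart, and the spread within each was small (14255 ± 888 against 21294 ± 1493, SD, n = 3 each). The log2 fold change was 0.58 (SE 0.13, 95% interval 0.29 to 0.87, adjusted p = 0.0191, limma). The call was lost in 6 of 16 alternatives, namely with no filter on low genes (adjusted p = 0.0604), with control replicates 1 and 1_1 averaged (0.0683), and without control replicate 1 (0.0946), 1_1 (0.0566) or 2 (0.102) or without replicate 2_2 labelled Cre (0.0890), while the log2 fold change stayed between 0.53 and 0.64 over all 16.

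*Ptprg*, the other R5 gene, had 880, 790 and 764 normalised counts in control and 955, 831 and 760 in the Cre-labelled libraries, with overlapping groups. Its log2 fold change was 0.06 (SE 0.13, 95% interval -0.22 to 0.34, adjusted p = 0.813, limma). The upper end of its interval lies below the fold change estimated for *Ptprt* or *Ptprd*.

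*Ptpro*, the R3 receptor, had 196.4, 207.7 and 178.7 normalised counts in control and 261.1, 322.8 and 337.6 in the Cre-labelled libraries. All 3 libraries labelled Cre were above all 3 controls (194 ± 14.6 against 307 ± 40.6, SD, n = 3 each). The log2 fold change was 0.65 (SE 0.16, 95% interval 0.31 to 1.00, adjusted p = 0.0254, limma). Its call was lost with control replicates 1 and 1_1 averaged (adjusted p = 0.0731) and without control replicate 1 (0.0999), 1_1 (0.0631) or 2 (0.109) or replicate 2_2 (0.102) or 3 (0.0554) labelled Cre, with a log2 fold change of 0.58 to 0.76 over the 16 alternatives.

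Several markers of glial lineages were higher in the same libraries. The 8 astrocyte markers summed to 4889 to 5041 normalised counts in control and 8012 to 8953 in the Cre-labelled libraries, with 4 of 7 tested higher (*S100b*, *Aqp4*, *Slc1a2* and *Glul*), while *Gfap* was near 0 in either group. *Aldh1l1*, a low-level marker on that list, was at 17.3 ± 2.34 in control and 5.35 ± 3.30 in the Cre-labelled libraries without overlap (SD, n = 3 each), a log2 fold change of -1.65 with an adjusted p of 0.065 (limma). The 8 oligodendrocyte lineage markers summed to 12485 to 14404 and 17237 to 19639, with 3 of 6 tested higher (*Pdgfra*, *Cspg4* and *Olig2*). The list for neural stem cells held 8 genes, with 0 calls upwards and 1 downwards, *Nes*. limma, edgeR and DESeq2 called 0 of the 5 neuronal, 1 leukocyte and 2 endothelial markers tested. Over all tested genes limma called 4.74% higher and 5.22% lower. At an unadjusted p under 0.05 limma gave 0 neuronal and 0 leukocyte markers, 1 endothelial marker higher (*Ptprb*) and 1 lower (*Kdr*). *Stmn2*, *Tyrobp*, *Cdh5* and *Cldn5* had no read in any library, and 0 of 7 fibroblast markers reached the level for testing. The part of the glial marker shift in the differences of *Ptprk*, *Ptprt*, *Ptprd*, *Ptprz1* and *Ptpro* was not tested.

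The order of the 10 genes by level per kb of exon was mostly shared by both conditions. In control it ran from *Ptprz1* (1767 normalised counts per kb) through *Ptprf* (331), *Ptprs* (182), *Ptprg* (74.3), *Ptpro* (28.4) and *Ptprm* (24.4) to *Ptpru* (6.30), *Ptprt* (3.77), *Ptprd* (1.88) and *Ptprk* (0.244). Only *Ptpru* and *Ptprt* overlapped over the control libraries among neighbours in this order. The places also depend on the union exon length, which was largest for *Ptprd* (22772 bases) and *Ptprt* (12620), and other lengths were not tried. In the Cre-labelled libraries the first 6 places were the same, from *Ptprz1* at 2639 to *Ptprm* at 29.1, and *Ptprk* followed at 25.5, before *Ptprt* (9.33), *Ptpru* (7.94) and *Ptprd* (6.52). There *Ptprm* and *Ptprk*, *Ptprt* and *Ptpru*, and *Ptpru* and *Ptprd* overlapped, so the order within these pairs is not resolved. Among the 20 receptor phosphatase genes with an exon length, *Ptprk* was at place 18 in control and at place 8 in the Cre-labelled libraries. *Ptprz1* alone was 55.6 to 61.5% of the summed level of the 20 in control and 60.8 to 65.8% in the others.

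The remaining receptor phosphatases were set beside these values, on a list also made with earlier results of these data known. Of 11 listed, 5 reached the level for testing, 1 was higher (20%, against 9.96% called over all tested genes) and 0 were lower. *Ptpre*, a receptor with a very short extracellular part, had 31.2, 19.0 and 9.34 normalised counts in control and 60.3, 56.8 and 57.3 in the Cre-labelled libraries. The control libraries were uneven and all below the others. Its log2 fold change was 1.65 (SE 0.39, 95% interval 0.79 to 2.51, adjusted p = 0.023, limma), with the call lost without control replicate 1_1 or 2 or replicate 2_2 labelled Cre. Its close relative *Ptpra*, an activator of Src family kinases and the receptor phosphatase with the next highest level after *Ptprz1* (594 and 753 per kb), had 2146 ± 44.8 and 2721 ± 52.2 normalised counts with groups that did not overlap, a log2 fold change of 0.34 and an adjusted p of 0.0627 with limma, and passed without replicate 2 labelled Cre (adjusted p = 0.0485). The endothelial receptor gene *Ptprb* (log2 fold change 1.23, adjusted p = 0.136, limma), *Ptprj* (-0.19) and *Ptprr* (0.23) did not pass. *Ptprc*, which encodes the leukocyte antigen CD45, and *Ptprn*, *Ptprn2*, *Ptprq* and *Ptprv* were below the level for testing, and *Ptprh* had no read in any library. Over all receptor phosphatases other than *Ptprk*, 5 of 14 tested were higher and 0 were lower, and the 14 log2 fold changes had a median of 0.35. The share called was 35.7%, against 9.96% called and 4.74% higher over all tested genes. Of the 5, 4 are members, and both the members and the list were chosen with results of these data known. This share is thus a description and not independent support.

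**Figure D3:**
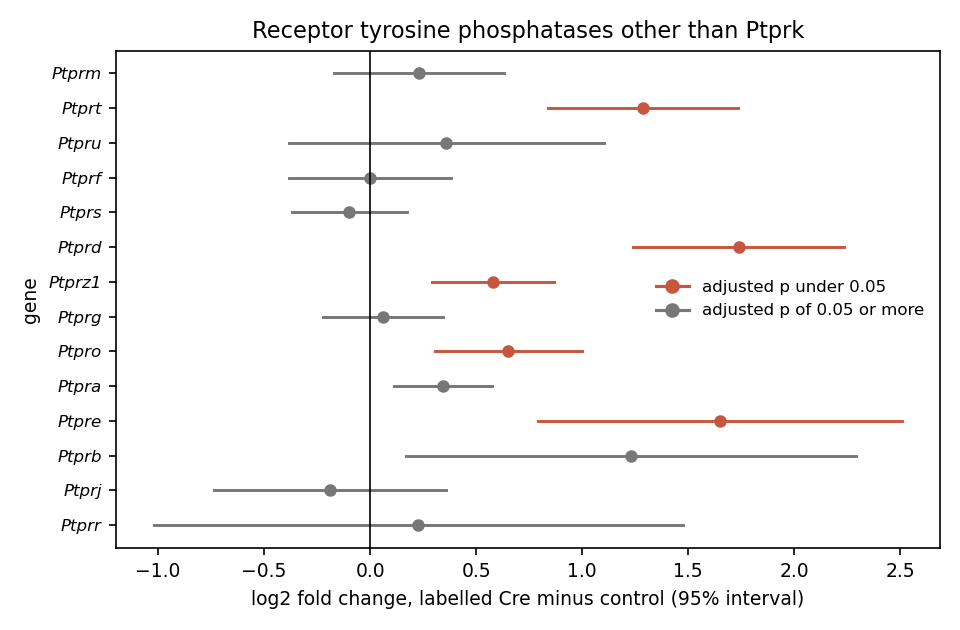
Log2 fold change with its 95% interval (limma) for the 14 tested receptor phosphatases other than *Ptprk*, in red where the adjusted p was under 0.05. *Ptprd*, *Ptpre* and *Ptprt* lie above 1, as does *Ptprb* (1.23), which did not pass, *Ptprz1* and *Ptpro* lie near 0.6, and no interval lies wholly below 0.

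The cytosolic tyrosine phosphatases showed no call in either direction. Of 17 listed, which include *Ptpn1*, the insulin receptor phosphatase PTP1B, and *Ptpn11*, the SHP2 phosphatase that carries growth factor signals to ERK, 12 were tested. With limma 0 were called, against 9.96% over all tested genes, and 0 had an unadjusted p under 0.05, against 25.5%. edgeR and DESeq2 also called 0, while *Ptpn14* passed once replicate 2 labelled Cre was left out (adjusted p = 0.0203, limma). *Ptpn11* had 1426 ± 24.8 and 1510 ± 95.1 normalised counts (SD, n = 3 each), and its log2 fold change was 0.08 with a 95% interval of -0.16 to 0.32. *Ptpn1* had 1356 ± 38.3 and 1449 ± 310, with a log2 fold change of 0.07 and an interval of -0.25 to 0.40. The 12 log2 fold changes ran from -0.35 (*Ptpn13*) to 0.33 (*Ptpn14*), with a median of 0.05. Below the level for testing, *Ptpn5* was at 3.09 ± 0.521 in control and 11.0 ± 2.31 in the Cre-labelled libraries without overlap (SD, n = 3 each). It had 2 to 4 and 12 to 14 reads. *Ptpn6*, *Ptpn7* and *Ptpn18*, also untested, had lower means in the Cre-labelled libraries with overlapping groups. Whether the receptor and cytosolic genes differ as groups was not tested.

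**Figure D4:**
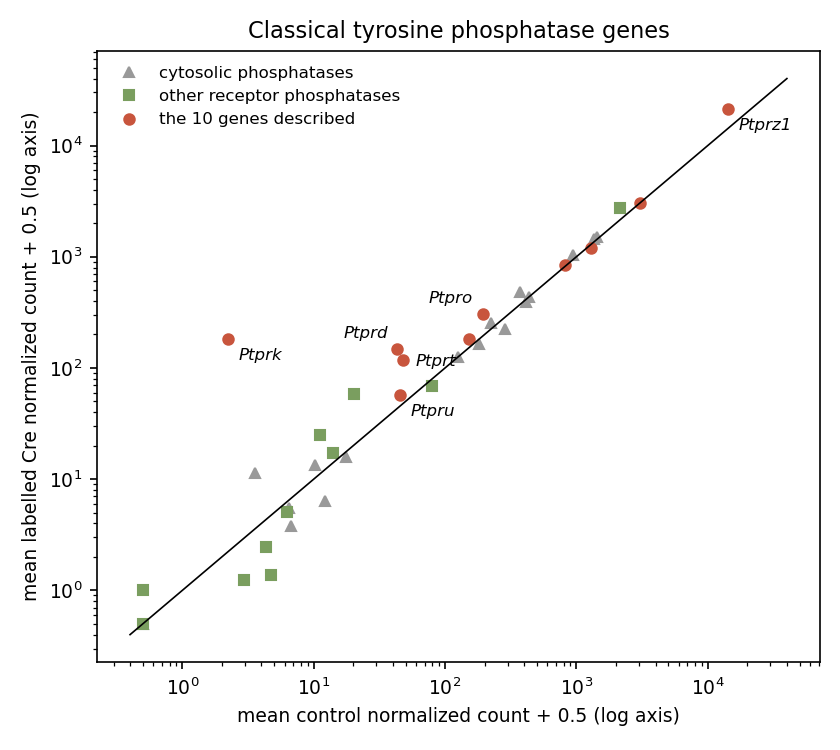
Mean normalised count in the Cre-labelled libraries against that in control, both with 0.5 added and on log axes, for the 10 genes described (red circles), the other receptor phosphatases (green squares) and the cytosolic phosphatases (grey triangles), with a line at equal values. *Ptprk* stands far above the line at a control mean of 1.73, while the 12 tested cytosolic genes lie close to it. Cytosolic genes below the level for testing are also drawn, among them *Ptpn5* (3.09 and 11.0), above the line.

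Genes that work with these receptors were taken from a list of 39 ligands, partners and processing enzymes, of which 29 were tested, 4 were higher and 0 were lower (13.8% called, against 9.96% over all tested genes). Of the LAR group ligands, 2 of 8 tested were higher. *Ntrk3*, which encodes the neurotrophin receptor TrkC and binds PTPRS across the synapse, had 268, 315 and 291 normalised counts in control and 449, 470 and 454 in the Cre-labelled libraries, 2 tight groups that were well apart (log2 fold change 0.65, SE 0.13, adjusted p = 0.0108, limma). It lost its call without control replicate 1 (adjusted p = 0.0725). *Lrrc4b*, which encodes the LAR ligand NGL-3, had 667, 714 and 763 in control and 905, 1253 and 1198 in the others (log2 fold change 0.63, SE 0.14, adjusted p = 0.0191, limma), and its call was lost in 5 alternatives, in which 1 control library or replicate 2_2 labelled Cre was left out or control replicates 1 and 1_1 were averaged. The glypican gene *Gpc4*, a heparan sulphate ligand of PTPRS, was at 66.6 ± 14.0 and 119 ± 22.8 (log2 fold change 0.83, adjusted p = 0.0507, limma) and passed with edgeR, with DESeq2, with TMM or total count scaling and without replicate 3 labelled Cre.

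Of the R5 ligands, 1 of 7 tested was higher. *Cntn1*, a contactin that binds PTPRZ1, had 301, 259 and 263 normalised counts in control and 573, 511 and 492 in the Cre-labelled libraries. These groups were far apart (log2 fold change 0.94, SE 0.14, adjusted p = 0.002, limma), and the call was kept in all 16 alternatives. *Ptn*, encoding pleiotrophin, was at 14951 ± 597 and 16606 ± 1656 with overlapping groups (log2 fold change 0.15, 95% interval -0.14 to 0.44, adjusted p = 0.534, limma). *Tnc*, encoding the matrix protein tenascin-C of the stem cell niche, was at 2380 ± 266 and 1803 ± 58.2 (log2 fold change -0.39, adjusted p = 0.0615, limma), and passed only without replicate 2 labelled Cre.

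Inside the cell, 1 of 6 tested partners of the LAR group was higher. *Ppfibp2*, encoding a liprin-β, had 162, 195 and 219 normalised counts in control and 462, 452 and 594 in the Cre-labelled libraries, with no overlap (log2 fold change 1.38, SE 0.17, adjusted p = 0.0007, limma), and was called in all 16 alternatives. *Ppfia1*, which encodes the liprin-α that binds LAR, had a log2 fold change of -0.12 with a 95% interval of -0.38 to 0.14. Junction partners and substrates of the R2B group showed 0 calls among 6 tested with limma, edgeR or DESeq2, and 0 had an unadjusted p under 0.05. Over all tested genes limma called 9.96%, and 25.5% had an unadjusted p under 0.05. *Ctnnb1* (β-catenin) was at 6148 ± 407 and 6899 ± 1226 (log2 fold change 0.15, 95% interval -0.17 to 0.47), and *Cdh2* (N-cadherin) at 817 ± 140 and 892 ± 46.4 (log2 fold change 0.14, interval -0.17 to 0.45). E-cadherin, encoded by *Cdh1*, was near 0 in either group. The proteases *Furin* and *Adam10*, which cut R2B receptors, had log2 fold changes of -0.11 and -0.20 and 0 calls with any of the 3 tools, also at an unadjusted p under 0.05.

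**Figure D5:**
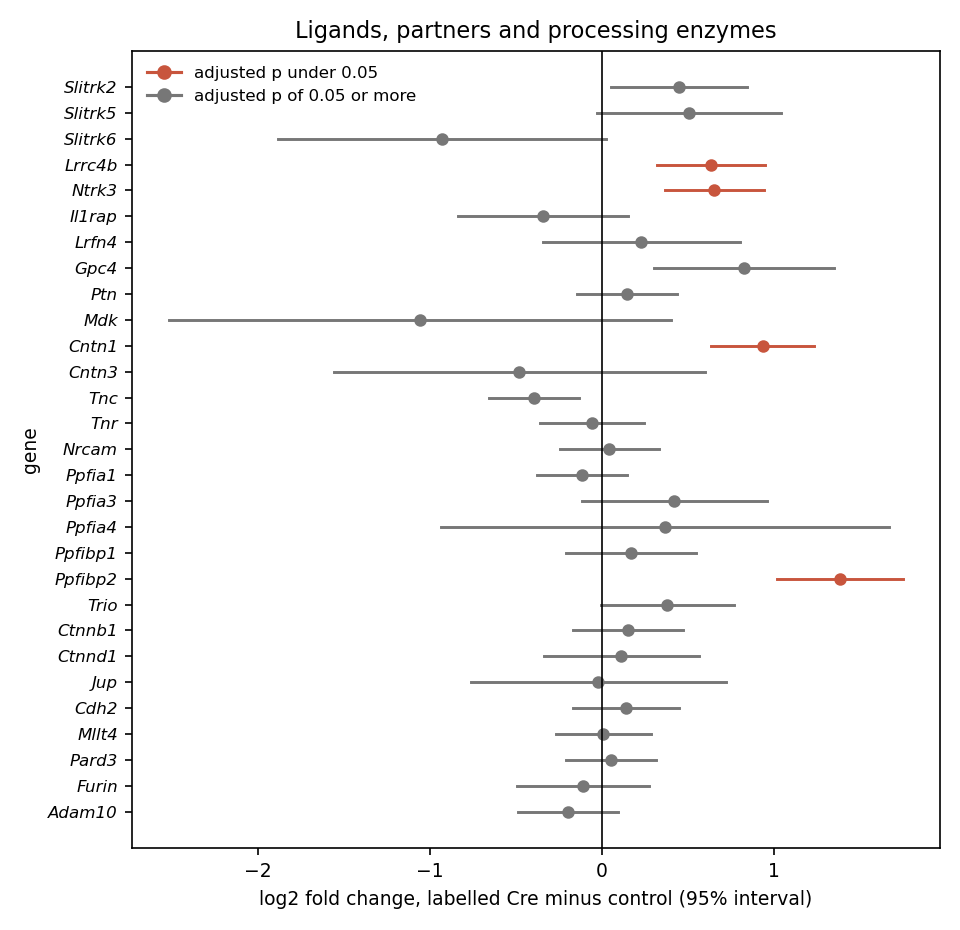
Log2 fold change with its 95% interval (limma) for the 29 tested ligands, partners and processing enzymes, in red where the adjusted p was under 0.05. *Ppfibp2* (1.38) and *Cntn1* (0.94) have intervals far from 0, and the 6 R2B junction partners from *Ctnnb1* to *Pard3*, among them *Mllt4* (afadin, named *Afdn* in the table), have intervals that include 0.

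Of the 20 nearest coding genes, 1 on each side of each member, 10 were tested, 2 were higher and 0 were lower. Over all tested genes 4.74% were higher and 5.22% lower. The remaining neighbours were below the level for testing, and the distance to a member reached 2622 kb. Whether members and their neighbours change together was not tested. *Eps8*, an actin regulator that is a substrate of the EGF receptor, lies 12.6 kb after the end of *Ptpro* and was at 445 ± 90.2 in control and 968 ± 26.5 in the Cre-labelled libraries (log2 fold change 1.14, adjusted p = 0.00105, limma). *3830406C13Rik*, 42.1 kb after *Ptprg*, was at 113 ± 13.9 and 223 ± 12.6 (log2 fold change 0.98, adjusted p = 0.00475, limma), beside a *Ptprg* that had no call. The neighbours of *Ptprk* were almost silent, with *Themis*, 71.0 kb after it, at 0 reads in every control library and 1, 2 and 1 in the others, and *Lama2*, 458 kb before it, at 0 to 3 and 0 to 12 reads. *Ptprtos*, annotated within 1 kb of *Ptprt* or overlapping it, had no read in any library.

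The genes most like *Ptprk* over the 6 libraries, by Pearson's r of log2(normalised count + 1), were *Pcdh17* (r = 0.9986), *Gm44597* (0.9981), *Baz2b* (0.9962), *Car11* (0.9961) and *Dmxl2* (0.9959), and 29 genes had an r above 0.99. The 6 libraries fall into their 2 groups, so r here is set mainly by the difference between the groups and is given as a description. *Pcdh17*, a protocadherin gene, had 10.1, 21.9 and 10.7 normalised counts in control and 346, 366 and 306 in the Cre-labelled libraries, and so was the gene among the 5 closest to *Ptprk* in the size of the step. *Baz2b*, a chromatin reader gene, was at 2302 ± 96.7 and 3267 ± 80.3, a much smaller step from a high level.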

How the data were processed

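Total RNA of the 6 libraries was made into libraries with a TruSeq RNA kit that does not mark strand. Per the labels, STAR 2.7, DESeq2 and the mm10 build were used, while the study's methods name TopHat with mm9 and mm10. The read counter, the use of strand and the annotation are not given in the sources used here. The values the authors deposited are normalized counts, a signal made by dividing each gene's reads by a size factor of the library. Further columns of the deposited file hold the authors' own comparison, as log2 fold changes, standard errors, test statistics as a score, and p-values, none of which was used. Of 53379 genes, 873 have no name and 1 was left out for a missing value.

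The normalized counts were turned back into reads from the value of 1 read in each library, and 100% came out whole within 0.01 (largest deviation 9.9e-05). Totals were 7510615 to 14828100 reads. Genes with a mean of at least 10 normalized counts were tested with limma 3.58.1 (R 4.3.3, eBayes with trend) on log2(normalized count + 1), and adjusted with Benjamini-Hochberg over 14840 genes at 0.05. The pseudocount draws the fold changes of low genes towards 0. The alternatives were edgeR 4.0.16, which called 1483 genes on the recovered reads, and DESeq2 1.42.0, which called 1755, pseudocounts of 0.5 and 5, no filter or a mean of at least 50, TMM and total count scaling, averaging replicates 1 and 1_1 or 2 and 2_2, or, added after seeing the data, both pairs together, and leaving out each of the 6 libraries. Levels per kb used the union exon length of GENCODE M1, which *Ptprv* lacks. *Ptprk* was given as a bound against 3 reads per control library. Members and lists were chosen with earlier results of these data known. The genes named were every member, every called gene of the lists, the 5 genes most like *Ptprk*, and, of the nearest coding genes, those called and those beside *Ptprk*. Other list and marker genes were picked for their role, and *Mmp16*, *Six3os1*, *Ptpn5*, *Ptpn6*, *Ptpn7*, *Ptpn14*, *Ptpn18* and *Aldh1l1* were named after their values were seen. 1 gene first placed on the lists was taken off them and is not reported here.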

Additional observations from a re-analysis of the deposited data

How the results depend on the processing

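The bound on *Ptprk* stayed between 43.1 and 53.5 over 10 alternatives; it uses neither the pseudocount nor the filter, so those settings gave no value. The count of all genes called was 660 with control replicates 1 and 1_1 averaged and 558 to 2396 when 1 library was left out, and 885 with both pairs of replicates averaged, a setting chosen after seeing the data, in which the *Ptprk* bound was 46.2. Members called were 2 with control replicates 1 and 1_1 averaged, 3 with both pairs averaged and 2 to 4 with a library left out. *Ptprt* and *Ptprd* were called in every alternative, both pairs averaged included. Other receptor phosphatases called were 0 at a mean of at least 50, where 2 of them were tested, and 0 to 2 with a library left out. The left-out ranges were 0 to 1 for cytosolic phosphatases and 2 to 6 for ligands, partners and processing enzymes. *Tbl1xr1* passed as higher with DESeq2 (log2 fold change 0.45, adjusted p = 0.0398) and without replicate 3 labelled Cre (0.55, adjusted p = 0.0234), and ranged from 0.36 to 0.55 with a library left out. The sign of *Ptprf* turned with edgeR (0.000513), DESeq2 (0.00208), TMM (0.0066) and total count scaling (0.00529), and with a library left out it ran from -0.16 to 0.12, while *Ptprg* ran from -0.027 to 0.14. The causes of these shifts were not tested, and no alternative moved the median of all genes by over 0.02. Low depth limits *Ptpre* and *Ptpru*, at under 100 reads in each library. It also limits *Ptprd* and *Ptprt* in control, at 30 to 46 and 33 to 49 reads. No paired analysis was possible because the groups share only 1 replicate number, 2.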

Other observations

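*Ptprk* headed a small set of genes that went from the floor to a measurable level. 44 genes had at most 3 reads in every control library and a mean of at least 10 normalised counts in the Cre-labelled libraries. Their median level was 13.1, *Ptprk* was the highest at 180.8, and the next was *Mmp16*, a membrane metalloproteinase gene, at 33.5. In the reverse direction 16 genes had at most 3 reads in every Cre-labelled library and a control mean of at least 10. The highest of these in control was *Six3os1*, at 1628. The counts of 44 and 16 are not on an equal footing. A single read stood for 0.918 to 1.46 normalised counts in control and 0.693 to 0.895 in the Cre-labelled libraries. The limit of 3 reads was therefore looser in control. Both sets were chosen by this contrast and are given as a description.

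Calls were also counted by the span of the gene. Of 674 tested genes spanning over 200 kb, as *Ptprk*, *Ptprm*, *Ptprt*, *Ptprd*, *Ptprg* and *Ptpro* do, 15% were higher in the Cre-labelled libraries and 6.08% were lower, and the median log2 fold change was 0.14. Of 12257 genes of 200 kb or shorter, 4.32% were higher and 5.58% lower, with a median of -0.02. A span was matched for 87.1% of the tested genes. The difference between the 2 classes was not tested, and neither was its part in the members' values.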
